A study of Mus musculus with 25 samples.

Results

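The 6 Iroquois homeobox genes of the mouse, Irx1 to Irx6, were followed in the pancreatic islet tumour lines αTC1 (alpha TC1 clone 6) and βTC6 (beta-TC-6). The members were the rows of the RNA-seq table that carry 1 of the 6 symbols, which are 7 gene IDs among 24439 since Irx2 has 2 of them, and the ATAC-seq peaks whose deposited nearest-gene annotation is an Irx gene, which are 46 of 65053. RNA-seq was made from 3 replicates of each line. ATAC-seq, which reads out DNA open to a transposase, was made from 5 replicates of each line and from 9 mixtures holding 10% to 90% αTC1 cells in steps of 10. Both lines grew in serum-containing medium that differed between them in the DMEM product, serum share and supplements, with a glucose amount stated for αTC1 only. Line and medium therefore cannot be told apart. Each is 1 line derived from a tumour of a transgenic mouse, in which a viral T antigen oncogene was driven by the glucagon promoter (αTC1, a single clone) or the insulin promoter (βTC6), and nothing in the sources used here says that replicates came from separate cultures, so p-values measure the spread between these samples only.

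Iroquois proteins are transcription factors of the TALE class of homeodomain proteins. In mammals the genes lie in 2 clusters, Irx1, Irx2 and Irx4 in one and Irx3, Irx5 and Irx6 in the other, and they pattern the nervous system, heart and limbs in the embryo. In the pancreas Irx1 and Irx2 are known from glucagon-producing alpha cells, Irx4 is known for its role in the ventricles of the heart, and the neighbouring introns of Fto hold long-range enhancers of Irx3.

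The RNA-seq libraries held 21795367 to 25876765 counts outside the spike-ins, and the pure ATAC-seq libraries 4397851 to 10374903 reads in peaks. Hormone genes differed as labelled. Gcg, which encodes glucagon, stood at 12113 to 14406 FPKM (fragments scaled to transcript length and library size) in αTC1 against 172 to 267 in βTC6. The summed FPKM of 5 beta-cell genes (Ins1, Ins2, Pdx1, Nkx6-1, Mafa) was 13.6 to 14.9 in the αTC1 libraries, while βTC6 ran from 25372 to 37986. The αTC1 sum was almost all Nkx6-1 (13.3 to 14.1). Ttr, also listed as an alpha-cell gene, was not called and had means of 835 FPKM in αTC1 and 1116 in βTC6. Markers of other islet cells were present in βTC6, where the delta-cell hormone gene Sst stood at 207 to 325 FPKM against 0 in αTC1, and the PP-cell gene Ppy at 3.70 to 50.8 against at most 0.10. Hhex, the other delta-cell gene listed, had 3 to 6 counts per library in αTC1 and 0 to 2 in βTC6. Lists for acinar (3.61 to 3.73 FPKM in αTC1, 0.17 to 0.99 in βTC6), ductal (4.05 to 4.42, 0.01 to 0.06) and fibroblast cells (2.42 to 3.43, 0.34 to 0.54) had low sums that were higher in αTC1. In αTC1 these sums came almost wholly from Cela1, Sox9, and Col1a2 with Pdgfra. All 4 were called higher in αTC1, as were 4.08% of the genes tested. They lay below 1 FPKM in every βTC6 library, so they were tested through αTC1 alone. In βTC6 Sox9 was 0 and the ductal sum was that of Cftr. Cftr had 0 counts in αTC1 against 2 to 9 in βTC6, and Col1a1 had means of 0.14 and 0.13 FPKM. Lists for endothelial, blood and epsilon cells summed to at most 2.19 FPKM in every library. The part of these markers in the Irx values was not tested.

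Irx1 and Irx2 were the abundant members in both lines and were lower in βTC6, Irx3 was low in αTC1 and almost absent from βTC6, Irx5 was low in both, and Irx4 and Irx6 were not detected beyond a single count. All log2 fold changes below are βTC6 over αTC1. A gene was tested where either line held it at 1 FPKM or more in each of its 3 libraries. The test was edgeR's quasi-likelihood test, and a gene was called at a Benjamini-Hochberg adjusted p below 5% with an absolute log2 fold change over 2. Irx1 and the main Irx2 ID passed the filter in both lines and were called lower in βTC6, a call made for 4.08% of the 12195 genes tested. The second Irx2 ID passed through αTC1 alone and shares reads with the first, so its call is given on its own. In bulk RNA, fewer cells expressing a gene and less RNA per cell cannot be told apart.

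Irx2 (ENSMUSG00000001504, chr13:72766245-72771644 on the plus strand of mm9) had the highest FPKM of the family in every library. It stood at 162, 165 and 183 FPKM in αTC1 and at 12.6, 11.5 and 13.9 in βTC6. The 2 lines did not overlap, and βTC6 kept 7.46% of the αTC1 mean (170.1 ± 11.5 against 12.7 ± 1.2 FPKM, SD, n = 3 each). The log2 fold change was −3.66 (SE 0.09, edgeR adjusted p = 5.1e-09), and Irx2 ranked 405 of 12195 tested genes by mean FPKM in αTC1 and 6327 in βTC6.

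Irx1 (ENSMUSG00000060969, chr13:72095680-72101171 on the minus strand of mm9), the neighbour of Irx2 in the same cluster, came second in every library. Its FPKM was 59.9, 60.6 and 75.6 in αTC1 and 4.47, 4.06 and 7.55 in βTC6. The lines did not overlap, and the third replicate was the highest of its line in both. The log2 fold change was −3.56 (SE 0.22, edgeR adjusted p = 8.7e-07), with means of 65.4 ± 8.86 and 5.36 ± 1.91 FPKM (SD, n = 3 each). Irx2 exceeded Irx1 by 2.42 to 2.73 times in the αTC1 libraries and by 1.85 to 2.84 times in the βTC6 libraries on the FPKM scale, and Irx1 with both Irx2 IDs made up 97.7% to 99.2% of the summed Irx FPKM of a library.

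The second Irx2 ID (ENSMUSG00000093659), which is absent from GENCODE vM1 and so has no position here, was estimated at 2.13, 2.58 and 4.59 FPKM in αTC1 and at 0.19, 0 and 0 in βTC6. Its expected counts were 19.7, 26.3 and 147.9 in αTC1, and 1.98, 0 and 0 in βTC6. In the 4 libraries where both Irx2 IDs had counts, these added up to a whole number within 0.01, so the counting had divided shared reads between them, and the value of either ID is uncertain by that division. The second ID took 0.46% to 2.72% of the Irx2 counts in αTC1, most in replicate 3. Over the 3 libraries of each line, 194 rounded counts stood against 2, a ratio of 104 per counted read (exact 95% interval 28.4 to 864, counting error only), and 147.9 of the αTC1 counts lay in replicate 3. edgeR called it at a log2 fold change of −6.36 (SE 1.26, adjusted p = 0.0015), which was −4.94 without αTC1 replicate 3 and −8.99 without βTC6 replicate 1, both still called. limma on log2(FPKM + 1) gave −1.91, under the fold threshold. With both IDs summed Irx2 kept its call at a log2 fold change of −3.67 (SE 0.09, adjusted p = 6.1e-09), an alternative chosen after the data were seen.

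Irx3 (ENSMUSG00000031734, chr8:94322428-94325553 on the minus strand of mm9) missed the filter through a single library. Its FPKM was 0.97, 1.29 and 1.49 in αTC1 and 0.02 in each βTC6 replicate, from 59, 87 and 102 counts against 1, 1 and 1. The lines did not overlap, and the ratio of summed counts per counted read was 88.5 (exact 95% interval 29.9 to 432, counting error only). Without the filter edgeR called Irx3 as well (adjusted p = 9.4e-08), in a fit that called 5.21% of 19570 genes lower in βTC6. A non-coding gene on the opposite strand, D230002A01Rik, overlaps its start and held 0 to 7 counts per library, and because the counting is not stated to have used strand, reads of the overlap cannot be told apart.

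Irx5 (ENSMUSG00000031737, chr8:94881695-94885351 on the plus strand of mm9) stayed below the filter in both lines, at 0.89, 0.60 and 0.88 FPKM in αTC1 and 0.29, 0.35 and 0.35 in βTC6. The groups did not overlap, but the counts were few, 35 to 53 against 18 to 22. Without the filter its log2 fold change was −1.24 (SE 0.31, edgeR adjusted p = 0.0044), short of the fold threshold.

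Irx4 (ENSMUSG00000021604, chr13:73397945-73407068) had 1 count in βTC6 replicate 3 and none in the other libraries, and Irx6 (ENSMUSG00000031738, chr8:95198188-95204855) had 1 count in αTC1 replicate 2. Both lay under the floor of 3 counts per library, so no fold is given and a lower level was not detectable at this depth. On the FPKM scale the αTC1 order was Irx2, Irx1, Irx3, Irx5, with the ranges of Irx3 and Irx5 (0.97 to 1.49 and 0.60 to 0.89) next to each other but not overlapping. In βTC6 it was Irx2, Irx1, Irx5, Irx3, with Irx3 under the floor of 3 counts in each library.

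**Figure D1:**
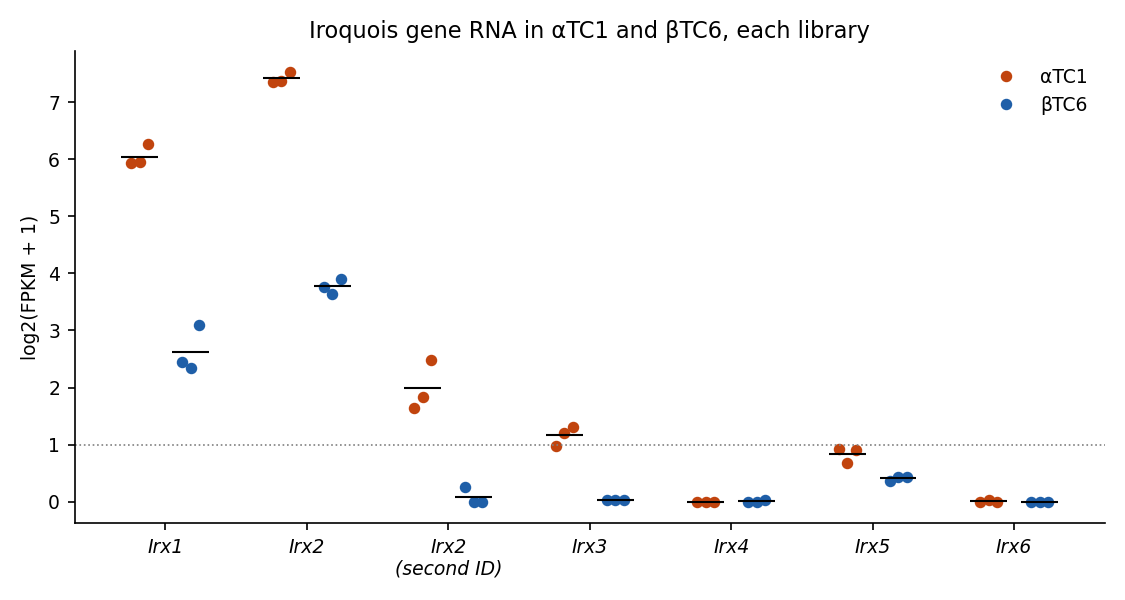
Each point is the log2(FPKM + 1) of 1 RNA-seq library, with αTC1 in orange and βTC6 in blue, bars at the mean of 3 libraries and a dotted line at 1 FPKM. Irx1 and Irx2 are well above the line in both lines and lower in βTC6, whereas Irx3 straddles it in αTC1 only and Irx4 and Irx6 lie at or near 0.

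αTC1 replicate 3 was the highest αTC1 library for Irx1, Irx2, the second Irx2 ID and Irx3. Leaving that library out kept the calls of Irx1 and both Irx2 IDs, as did leaving out each of the others. Genes whose log2(FPKM + 1) ran closest to each member over the 6 libraries, by Euclidean distance among the genes tested, were Elavl3 (0.80), Rgs4 (0.93) and Hs3st1 (1.11) for Irx1, and Stard4 (0.75), Cend1 (1.41) and Hk1 (1.52) for Irx2. For the second Irx2 ID they were Sprr1a (0.30), Hhatl (0.30) and Kif26a (0.33).

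Of the 46 Irx peaks, 23 were annotated to Irx1, 16 to Irx3, 4 to Irx4 and 1 each to Irx2, Irx5 and Irx6. Irx1 had more peaks than 98.9% of the gene symbols with a peak and Irx3 more than 96.9%. The peaks lay far from start sites, 29 of 46 by more than 100 kb against 24.7% of all peaks, and 39 of them lay between annotated genes, 4 in introns of Fto and 3 over exons of Irx1 or Irx3. Nearest-gene annotation goes by distance alone. The peak over the Irx2 start (chr13:72765518-72766870) was annotated to the non-coding gene Gm20554 and the one 1.97 kb upstream of Irx5 (chr8:94878967-94880477) to Crnde, so neither was a member by the rule, and their values are given beside the promoters below.

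Sequences are shown for 6 of the called peaks, 4 higher in αTC1 and 2 higher in βTC6, and for the promoters of the 2 abundant genes. Each is the central 200 bases of the peak on the plus strand of mm9, or the 200 bases before the annotated gene start on the gene's own strand, and positions are counted from 1. Capitals mark matches on either strand to the Iroquois site ACANNTGT, the forkhead sites TGTTTAC and TGTTT, the E-box CAGCTG and the homeodomain site TAATTA.
Irx1, 135 kb upstream, chr13:72236228-72236427: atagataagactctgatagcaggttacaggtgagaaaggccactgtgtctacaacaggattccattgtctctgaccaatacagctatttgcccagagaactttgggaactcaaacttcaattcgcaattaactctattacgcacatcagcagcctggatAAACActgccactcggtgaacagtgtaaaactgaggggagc
Irx1, 310 kb downstream, chr13:71791166-71791365: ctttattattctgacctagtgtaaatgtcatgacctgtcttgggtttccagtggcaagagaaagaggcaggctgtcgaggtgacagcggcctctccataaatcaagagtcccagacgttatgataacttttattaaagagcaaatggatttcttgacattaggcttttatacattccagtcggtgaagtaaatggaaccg
Irx3, 263 kb upstream, chr8:94588019-94588218: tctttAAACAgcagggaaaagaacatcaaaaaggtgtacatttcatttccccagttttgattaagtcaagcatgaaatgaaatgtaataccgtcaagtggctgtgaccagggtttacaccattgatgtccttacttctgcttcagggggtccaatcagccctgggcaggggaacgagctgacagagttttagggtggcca
Irx6, 55.9 kb upstream, chr8:95142308-95142507: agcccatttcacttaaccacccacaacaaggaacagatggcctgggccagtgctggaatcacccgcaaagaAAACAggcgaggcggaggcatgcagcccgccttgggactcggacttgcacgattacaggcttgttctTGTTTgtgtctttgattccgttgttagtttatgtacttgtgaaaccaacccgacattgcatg
Irx3, 208 kb downstream, chr8:94117065-94117264: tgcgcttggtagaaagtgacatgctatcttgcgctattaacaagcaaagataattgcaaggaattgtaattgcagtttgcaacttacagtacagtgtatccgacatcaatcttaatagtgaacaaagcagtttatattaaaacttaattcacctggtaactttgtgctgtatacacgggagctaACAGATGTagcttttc
Irx3, 91.7 kb downstream, chr8:94233790-94233989: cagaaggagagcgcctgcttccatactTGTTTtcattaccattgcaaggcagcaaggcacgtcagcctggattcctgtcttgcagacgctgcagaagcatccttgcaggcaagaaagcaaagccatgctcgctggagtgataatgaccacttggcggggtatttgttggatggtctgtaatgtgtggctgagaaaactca
Irx1 promoter, minus strand, chr13:72101172-72101371: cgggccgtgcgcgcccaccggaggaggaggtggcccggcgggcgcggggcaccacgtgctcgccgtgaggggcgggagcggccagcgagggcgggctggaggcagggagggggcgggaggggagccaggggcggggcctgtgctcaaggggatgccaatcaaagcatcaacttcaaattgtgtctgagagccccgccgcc
Irx2 promoter, plus strand, chr13:72766045-72766244: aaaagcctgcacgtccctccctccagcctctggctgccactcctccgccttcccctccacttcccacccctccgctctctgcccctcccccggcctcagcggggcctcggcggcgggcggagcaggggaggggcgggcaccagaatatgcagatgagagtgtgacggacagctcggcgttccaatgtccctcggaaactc

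Of the windows printed, the one 208 kb downstream of Irx3 holds an ACANNTGT match, those at Irx6, 263 kb upstream and 91.7 kb downstream of Irx3 and 135 kb upstream of Irx1 hold TGTTT, and the other three hold none of the sites. Over the 46 central windows, ACANNTGT occurred in 4 (8.70%, against 7.94% of all 65053 peaks), TGTTTAC in 2 (4.35% against 6.31%), CAGCTG in 9 (19.6% against 17.2%), TAATTA in 6 (13% against 6.93%) and TGTTT, which is contained in TGTTTAC, in 27 (58.7% against 51.8%). CAGCTG can lie inside ACANNTGT. Among peaks beyond 2 kb of a start, 44 of the 46 and 50472 in all, the shares were 9.09% against 9.52% for ACANNTGT, 4.55% against 7.66% for TGTTTAC, 18.2% against 18.5% for CAGCTG, 13.6% against 8.54% for TAATTA and 59.1% against 60.5% for TGTTT. These are letter matches and show no binding. The median GC content was 50.0% in the Irx windows and 48.5% in all.

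Peak values are the deposited TMM-normalized read counts (reads in a peak scaled to a common effective library size), tested with limma on log2(value + 1) over all peaks with the same thresholds as the genes. Of the 46 peaks, 6 were called higher in αTC1 (13%, against 5.38% of all peaks) and 3 higher in βTC6 (6.52%, against 12.9%). The 5 libraries of the lines did not overlap at 31 of the 46 peaks, against 63.9% of all peaks. The median log2 fold change of the Irx peaks was −0.84, next to 0.00 over all peaks, −0.03 over the peaks of chromosome 13 and −0.02 over those of chromosome 8. Without the fold threshold 31 Irx peaks were higher in αTC1 (38.1% of all peaks were) and 11 higher in βTC6 (39.9% of all) at an adjusted p below 5%. edgeR on the recovered reads called 11 and 7, beside 8.82% and 21.2% of all peaks, the 9 called by limma among them. With a pseudocount of 5 in place of 1, limma called 3 and 0 (1.26% and 2.56% of all peaks). The 3 that stayed were the peaks 263 kb upstream of Irx3, 55.9 kb upstream of Irx6 and 135 kb upstream of Irx1.

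The peak with the largest difference lay 263 kb upstream of Irx3 (chr8:94587654-94588582, between genes). It read 25.2, 30.9, 29.8, 24.7 and 32.5 in αTC1 replicates 1 to 5 and 1.14, 1.03, 2.57, 1.85 and 0.85 in those of βTC6. Every αTC1 library was far above every βTC6 library, at a mean ratio of 19.3. Its log2 fold change was −3.61 (SE 0.20, limma adjusted p = 3.9e-12).

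The only Irx6 peak, 55.9 kb upstream of the gene (chr8:95142056-95142758, between genes), differed nearly as much, while Irx6 RNA lay under the floor of 3 counts. It read 30.1, 32.3, 27.2, 31.3 and 33.9 in αTC1 and 2.13, 1.44, 2.43, 2.71 and 1.13 in βTC6. No libraries overlapped, and the log2 fold change was −3.46 (SE 0.18, limma adjusted p = 1.5e-12).

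Irx1 had 4 peaks called higher in αTC1, spread on both sides of the gene. The peak 135 kb upstream (chr13:72235914-72236741) read 30.0, 21.4, 27.8, 31.8 and 34.7 in αTC1 and 3.55, 3.49, 4.46, 3.14 and 1.69 across βTC6 (log2 fold change −2.84, SE 0.19, limma adjusted p = 4.8e-11). The peak 310 kb downstream (chr13:71790828-71791702) read 22.1, 26, 24.5, 28.8 and 36.8 in αTC1 against 3.83, 4.72, 2.97, 3.85 and 1.60 in βTC6 (−2.73, SE 0.20). In both, αTC1 replicate 5 was the highest and βTC6 replicate 5 the lowest library.

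The peak 296 kb upstream of Irx1 (chr13:72396255-72397167) read 22.1, 22.5, 22.4, 19.0 and 29.5 in αTC1 and 2.27, 4.92, 2.03, 2.71 and 3.0 across βTC6 (log2 fold change −2.62, SE 0.19). The fourth called peak overlaps the last exon of Irx1 and its 3′ UTR, 5.08 kb downstream of the start (chr13:72095886-72096297). It read 16.2, 11.2, 13.8, 18.8 and 7.94 in αTC1 and 1.85, 0.62, 1.62, 1.43 and 1.69 in βTC6. The lines did not overlap, and the log2 fold change was −2.56 (SE 0.24, limma adjusted p = 8.8e-09).

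A peak 227 kb upstream of Irx1 (chr13:72327777-72329226), among those higher in αTC1, was called in the opposite direction. It read 4.34, 3.23, 2.86, 4.78 and 1.59 in αTC1 and 15.9, 17.0, 16.5, 14.7 and 19.7 in βTC6. Its log2 fold change of 2.08 (SE 0.21, limma adjusted p = 1.7e-08) was under the fold threshold without αTC1 replicate 5 (1.90), in replicates 1 to 3 alone (1.98), after quantile normalization (1.83) and with a pseudocount of 5 (1.39). Over the 23 Irx1 peaks, all 8 downstream of the start had a negative log2 fold change (7 at an adjusted p below 5%), and of the 15 upstream 11 were negative (10 at that level) and 4 positive (3 at that level). Of all peaks 49.8% were negative, and 38.1% and 39.9% passed that level towards αTC1 and βTC6.

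The Irx3 peaks divided by side. All 8 of its peaks upstream of the start were higher in αTC1 at an adjusted p below 5%, and of the 8 downstream, towards and inside Fto, 6 were higher in βTC6 and 2 higher in αTC1 at that level, which 38.1% of all peaks passed towards αTC1 and 39.9% towards βTC6. The division was seen after the values were known and has no test.

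**Figure D2:**
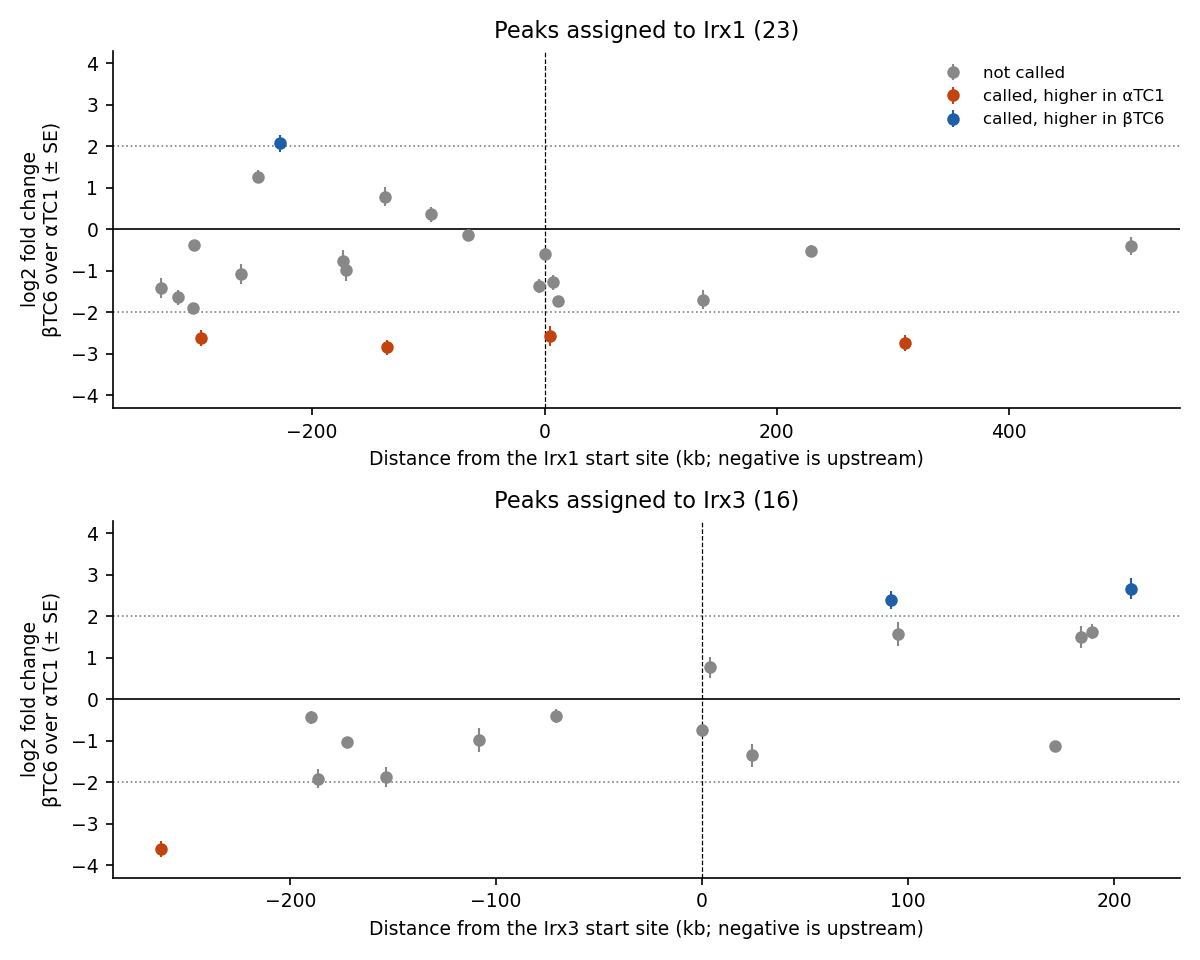
Log2 fold change (βTC6 over αTC1, error bars 1 SE) of the 23 Irx1 and 16 Irx3 peaks against the distance from the gene's start in kb, with called peaks in colour and dotted lines at the fold threshold of 2. The Irx3 peaks upstream are all below 0, down to −3.61, and most of those downstream are above 0, up to 2.66.

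Both peaks called higher in βTC6 near Irx3 belong to the downstream group. The peak in an intron of Fto, 208 kb downstream (chr8:94116694-94117635), read 0.70, 1.26, 1.05, 2.18 and 0.14 in αTC1 and 12.9, 11.1, 12.2, 12.8 and 8.45 across βTC6 (log2 fold change 2.66, SE 0.25, limma adjusted p = 8.9e-09). The lowest αTC1 value is the minimum of its library, which was counted as 1 read. The values hold no 0, so 0 reads and 1 read cannot be told apart there. The peak 91.7 kb downstream, beyond the end of Fto (chr8:94233577-94234201), read 1.68, 1.83, 2.1, 1.77 and 0.87 in αTC1 and 13.9, 11.9, 13.6, 9.70 and 15.0 in βTC6 (2.39, SE 0.21). Irx3 RNA, in contrast, was at 1 count in each βTC6 library.

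**Figure D3:**
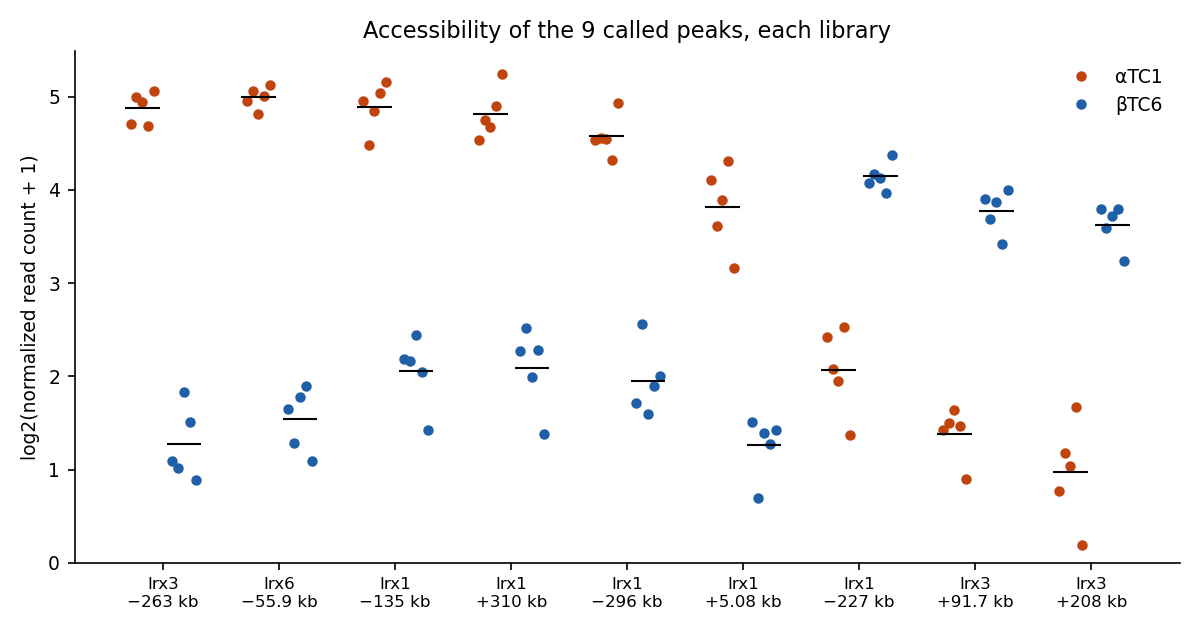
Log2(normalized read count + 1) of the 9 called Irx peaks in each of the 5 αTC1 (orange) and 5 βTC6 (blue) libraries, with bars at the mean, named by gene and distance from its start. At all 9 peaks, chosen by their difference between these same libraries, the lines are separate, as they are at 63.9% of all peaks. The 3 at the right are higher in βTC6.

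The start sites of the expressed genes lay in peaks open in both lines and somewhat higher in αTC1. The Irx1 start peak (chr13:72100282-72101681) read 38.4, 39.8, 37.0, 33.3 and 26.3 in αTC1 and 26.7, 22.2, 22.4, 18.0 and 25.4 in βTC6, so that αTC1 replicate 5 fell among the βTC6 values (log2 fold change −0.58, SE 0.13, limma adjusted p = 0.00027). The Irx2 start peak, annotated to Gm20554, read 92.0, 92.8, 93.6, 84.2 and 78.0 in αTC1 and 68.0, 48.8, 57.0, 59.2 and 56.6 in βTC6 (−0.60, SE 0.09, adjusted p = 6.9e-06). The Irx3 start peak (chr8:94324991-94326212) read 16.5, 17.6, 15.6, 16.9 and 14.6 in αTC1 and 9.51, 8.82, 10.0, 7.99 and 9.95 in βTC6 (−0.75, SE 0.13, adjusted p = 2.4e-05).

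These start peaks passed the adjusted p but not the fold threshold. The peak just upstream of Irx5 was of the same kind, at a mean of 82.4 ± 5.29 in αTC1 and 60.5 ± 4.68 in βTC6 (SD, n = 5 each, log2 fold change −0.44). No member peak lay within 2 kb of the start of Irx4 or Irx6. The RNA log2 fold changes of Irx1 and Irx2, on another scale, were −3.56 and −3.66.

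Other peaks near Irx1 were also lower in βTC6. The peak 4.53 kb upstream read 13.4 to 21.1 in αTC1 and 4.88 to 8.41 across βTC6 (log2 fold change −1.37, SE 0.16). The peak 6.99 kb downstream read 8.19 to 12.2 in αTC1 and 2.91 to 4.40 in βTC6 (−1.28, SE 0.19). Neither overlapped between lines or reached the fold threshold. By the mean over the 10 pure libraries the most accessible uncalled Irx1 peak was the one 65.8 kb upstream, which read 37.3 to 51.1 in αTC1 and 35.7 to 46.6 in βTC6, with overlapping lines and a log2 fold change of −0.13 (SE 0.10, limma adjusted p = 0.26). In αTC1 alone an uncalled peak 11.8 kb downstream was higher, at 48.4 to 57.4 against 11.4 to 18.6 in βTC6 (−1.72, SE 0.12), and is named after its values were seen.

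The single Irx2 peak, 10.7 kb downstream of the start and beyond the gene's end (chr13:72776068-72778260), read 54.9, 57.5, 64.9, 60.2 and 52.3 in αTC1 and 34.2, 29.5, 29.6, 30.7 and 27.9 in βTC6. The lines did not overlap, and the log2 fold change was −0.91 (SE 0.09, limma adjusted p = 2.0e-08). The most accessible Irx3 peak, 173 kb upstream (chr8:94497445-94498844), read 80.3 to 90.5 in αTC1 and 39.8 to 44.9 in βTC6 (−1.02, SE 0.08). Other named Irx3 peaks lay 3.91 kb (0.77, SE 0.25) and 24.4 kb downstream (−1.35, SE 0.28) and 71.1 kb upstream (−0.40, SE 0.17), each with overlapping lines.

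The 4 Irx4 peaks held no call. The one 183 kb upstream read 0.90 to 2.05 in αTC1 and 3.14 to 5.74 across βTC6 (log2 fold change 1.15, SE 0.22) and the one 11.6 kb downstream 2.52 to 4.62 and 6.38 to 9.37 (0.97, SE 0.20). Those 143 kb and 100 kb upstream had log2 fold changes of −0.28 (SE 0.09) and −0.30 (SE 0.17). The only Irx5 peak, 70.2 kb downstream, rested on 1 to 13 reads per βTC6 library and 6 to 35 per αTC1 library, with overlapping values and a log2 fold change of −1.20 (SE 0.29, limma adjusted p = 0.00081).

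Replicates 1 to 3 and replicates 4 and 5 had their mitochondrial reads tallied in different ways in the study's sequencing summary, and were treated as processing groups 1 and 2. Within group 1 alone, 6 Irx peaks were called higher in αTC1 and 2 higher in βTC6, and within group 2 alone 7 and 3. The shares of all peaks called were 4.82% and 12.5% in group 1 and 6.71% and 14.3% in group 2. A line-by-group interaction in limma passed an adjusted p below 5% at none of the 65053 peaks (0.00%), and at an unadjusted p below 0.05 at 3835 of them (5.90%) and 4 of the 46. The lowest adjusted interaction p of an Irx peak was 0.84.

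All peaks within the 2 Irx gene clusters widened by 100 kb on either side were also taken, whatever their annotation. The first cluster then held 50 peaks, 24 of them members, and the second 18, 14 of them members. The 26 and 4 other peaks added 2 and 1 calls higher in αTC1 and 3 and 0 higher in βTC6, beside the 5.38% and 12.9% of all peaks. Examples in each direction lay 296 kb downstream of Irx2 (chr13:73062055-73062687, 48.7 ± 7.71 against 4.79 ± 1.83, SD, n = 5 each, log2 fold change −3.14) and 190.0 kb upstream of it (chr13:72575842-72576689, 1.12 ± 0.78 against 15.7 ± 2.35, log2 fold change 3.05).

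The 9 mixtures gave a check in other libraries. A slope of log2(value + 1) per 10 percentage points of αTC1 was fitted in limma without the pure lines, each composition having 1 library. At an adjusted p below 5%, 24 of the 46 Irx peaks rose with the αTC1 share (24.8% of all peaks did) and 8 fell (33.5% of all), 32 together where 58.3% of all peaks passed. None of these ran against its pure-line direction. Of all peaks called between the pure lines 98.6% kept theirs, and the mixtures hold cells of the same lines. The count of rising peaks was 15 without the 10% mixture, a fit in which 19.7% of all peaks rose. Among the peaks named here, the slopes of the Irx2, Irx5 and 2 Irx4 peaks and of the Irx3 peak 24.4 kb downstream lost their calls when single mixtures were left out.

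All 9 called peaks passed in the direction set by the pure lines, as did 98.6% of all peaks called in either direction. The Irx6 peak had the steepest rise, 0.31 per 10 points (SE 0.05, limma adjusted p = 3.3e-05), from 2.42 at 10% αTC1 through 15.3 at 50% to 33.7 at 90%. The peak 263 kb upstream of Irx3 rose by 0.26 (SE 0.04), from 3.63 through 12.1 to 30.5. The peak 135 kb upstream of Irx1 went from 6.19 through 18.3 to 27.4 (slope 0.23, SE 0.03) and the one 310 kb downstream from 7.67 through 15.5 to 30.7 (slope 0.23, SE 0.02).

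In the other direction, the peak 91.7 kb downstream of Irx3 went from 12 at 10% αTC1 through 7.45 at 50% to 1.42 at 90% (slope −0.28, SE 0.04), and the one 227 kb upstream of Irx1 from 23.0 through 13 to 2.84 (slope −0.28, SE 0.04). The peak in Fto went from 6.45 through 3.21 to 1.22, with its highest value, 9.86, at 20% (slope −0.22, SE 0.05). The start peaks of Irx1 and Irx3 did not pass (slopes 0.02 and 0.06, adjusted p = 0.61 and 0.14), nor did the peak 4.53 kb upstream of Irx1 (0.08, adjusted p = 0.14). Of the non-member peaks, the one over the Irx2 start passed (0.04, limma adjusted p = 0.038) and the one just upstream of Irx5 did not (0.02, adjusted p = 0.39).

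**Figure D4:**
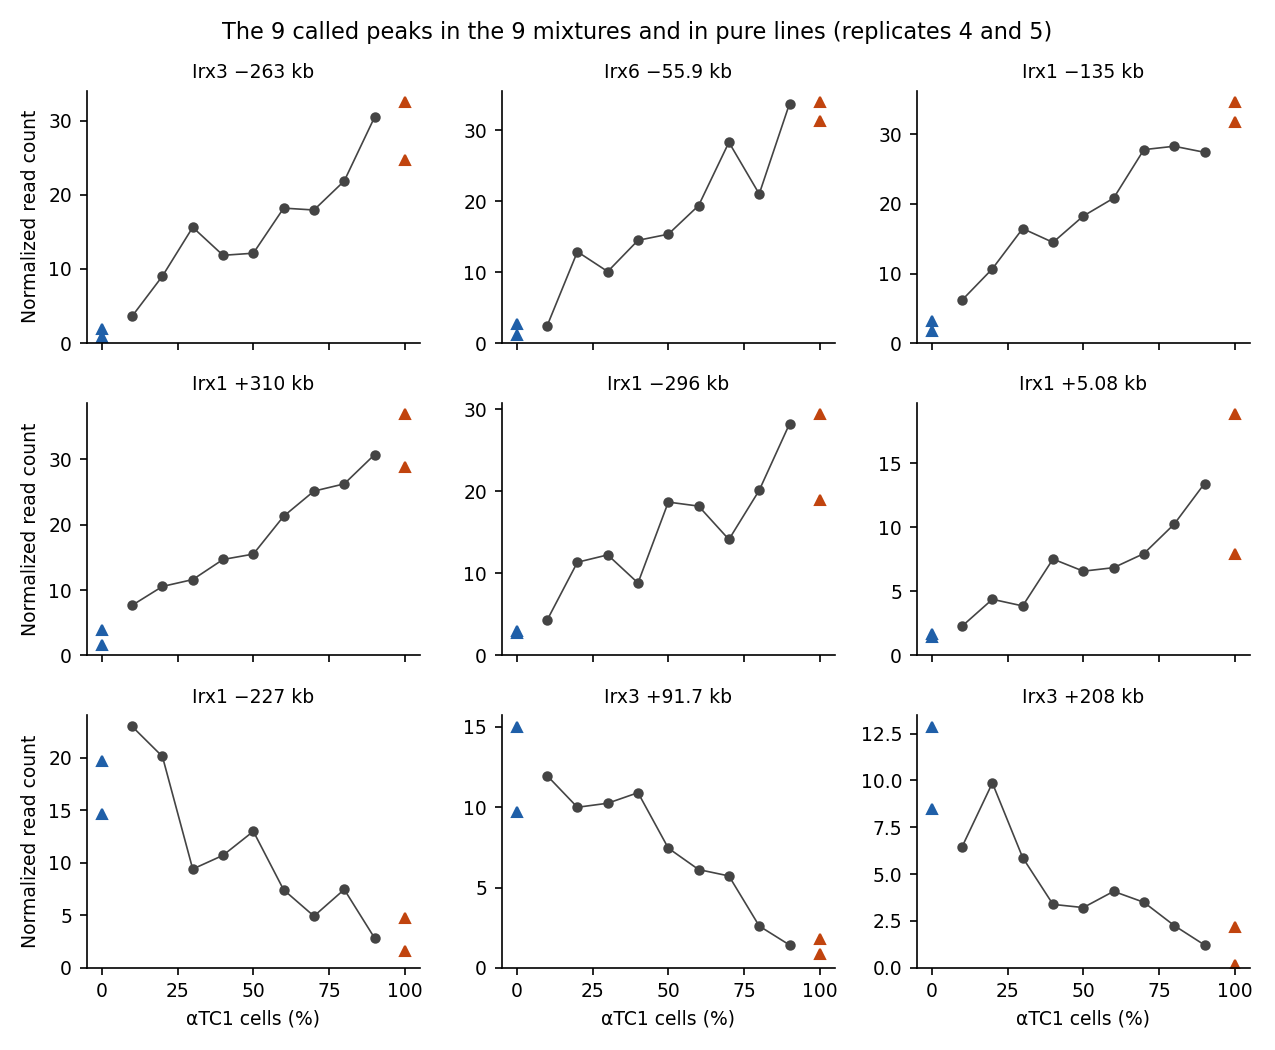
Normalized read count of the 9 called Irx peaks against the percentage of αTC1 cells, with the 9 mixtures in grey (1 library each) and replicates 4 and 5 of pure βTC6 (blue, at 0%) and pure αTC1 (orange, at 100%) as triangles. The 6 peaks called higher in αTC1 rise across the mixtures, the Irx6 peak from 2.42 to 33.7, and the 3 called higher in βTC6 fall.

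Other TALE homeobox genes, several of whose proteins pair with one another on DNA, were compared as a list. All 12 were tested, and 1 was called higher in αTC1 and 2 higher in βTC6, beside 4.08% and 10.2% of all genes. The median log2 fold change was −0.14, next to 0.01 over all genes tested. Meis1, a partner of Hox and Pbx proteins, fell from 14.3 ± 2.09 FPKM in αTC1 to 1.21 ± 0.18 in βTC6 (SD, n = 3 each, log2 fold change −3.54, SE 0.18, edgeR adjusted p = 2.4e-07). Pbx3, a DNA-binding partner of Meis and Pknox proteins, rose from 1.14 ± 0.30 to 41.5 ± 1.18 (5.35, SE 0.13), and Pknox2 from 0.08 ± 0.01 to 3.78 ± 0.39 (5.81, SE 0.24). Pbx3 and Pknox2 passed the filter through βTC6 alone, the line where they are high, so their calls are limited in the same way as that of the second Irx2 ID.

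Of 10 listed genes beside the 2 clusters or between their members, 8 were in the table (Crnde as 4933436C20Rik) and 5 passed the filter, among them Fto, a nucleic acid demethylase, and Ndufs6, a subunit of respiratory complex I. edgeR called none of the 5, where it called 14.3% of all genes, DESeq2 called none, and 1, Fto, was below 0.05 in unadjusted p and below 5% in adjusted p but far under the fold threshold. Fto stood at 26.3 ± 0.64 FPKM in αTC1 and 28.8 ± 0.37 across βTC6 (log2 fold change 0.18, SE 0.07, edgeR adjusted p = 0.035), and Ndufs6 at 142.8 ± 1.49 and 142.8 ± 12.8 (0.05, SE 0.08). The median log2 fold change of tested genes was −0.20 on chromosome 13 and 0.20 on chromosome 8.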

How the data were processed

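The ATAC-seq values the authors deposited are a signal: reads per consensus peak, TMM-normalized, on mm9. Their methods and processing notes name Trimmomatic 0.32, BWA 0.7.9a, Picard for duplicate removal, MACS2 2.1.0 on each library, DiffBind for merging and HOMER 4.6 for annotation. Values were whole multiples of 1 step per library, so reads were recovered (100% whole within 0.01), and the table holds no 0. The authors deposited RSEM 1.2.12 expected counts and FPKM on Ensembl transcripts; expected counts were rounded to whole numbers. Coordinates are printed as deposited, and may start 1 base early.

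Genes were tested with edgeR 4.0.16 (TMM) and peaks with limma 3.58.1 (trend, pseudocount 1) in R 4.3.3; tests were checked on simulated data. Members, gene lists and motifs were chosen with earlier results of these data known. Named peaks were the 4 nearest to each start, all called peaks and the uncalled peak of each gene with the highest mean over the pure libraries; lists were other TALE genes, cluster neighbours and cell type markers. Intervals and floors (3 counts) cover counting error only. Alternatives were DESeq2 1.42.0, edgeR on recovered reads, other scalings, filters, pseudocounts, replicate blocks and leaving out each library. Columns of unmapped samples numbered 0.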

Additional observations from a re-analysis of the deposited data

Results flagged for a closer look

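Each named peak was screened in each line for a library far from the other 4 (48 peak and line pairs, 3 found, where chance gives about 5%). At the peak 5.08 kb downstream of the Irx1 start, βTC6 replicate 2 was lowest at 0.615, next to 1.43. At the peak 4.53 kb upstream of Irx1, αTC1 replicate 5 was lowest at 13.4, next to 18.9. At the peak 91.7 kb downstream of Irx3, αTC1 replicate 5 was lowest at 0.867, next to 1.68.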

How the results depend on the processing

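The 6 and 3 Irx peaks called higher in αTC1 and in βTC6 became 11 and 7 with edgeR on the recovered reads (8.82% and 21.2% of all peaks), 3 and 0 with a pseudocount of 5 (1.26% and 2.56%), and 31 and 11 by the adjusted p alone (38.1% and 39.9% of all peaks). They were 10 and 2 after quantile normalization (7.88% and 8.69%), which took the βTC6 share of all calls from 70.6% to 52.5%. The 68 peaks of the cluster windows, a different set that holds only part of the members, had 8 and 5 calls (5.38% and 12.9% of all peaks). Quantile normalization turned the peaks 65.8 kb upstream of Irx1 (0.25) and 143 kb upstream of Irx4 (0.15). The cause was not tested. Leaving out single libraries gave 6 to 7 and 2 to 3 calls (5.09% to 5.71% and 12.5% to 13.3% of all peaks). Leaving out single mixtures gave 15 to 25 rising and 6 to 8 falling peaks (19.7% to 24.7% and 28.9% to 33.2% of all). In the mixtures the slopes at the Irx1 start (−0.0027 to 0.034) and 4.53 kb upstream (−0.0029 to 0.12) changed sign. Among genes, Irx1 ran from −3.88 to −3.41 and Irx2 from −3.74 to −3.60 over all alternatives. The second Irx2 ID fell under the fold threshold with limma on log2(FPKM + 1) (−1.91). Replicate numbers did not pair the samples (correlations of −0.05 to 0.07 between same-numbered libraries), and the replicate block left 3 gene IDs and 6 and 3 peaks called. Depth limited Irx4 and Irx6, under 3 counts, the βTC6 values of Irx3 and of the second Irx2 ID, also under 3 counts per library, and the Irx5 peak.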
